A study of Mus musculus with 6 samples.

Results

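A set of 40 genes of glucose breakdown and of the transcriptional response to low oxygen were followed in 4T1-T cells, a clonal line from the mouse mammary carcinoma line 4T1, after the cells had been sorted by their uptake of acetylated low-density lipoprotein (acLDL). The genes were taken by symbol from the protein-coding genes of the deposited comparison, with the ID of the larger total count where a symbol had several IDs. Of the 40 genes named, 39 were present among 15973, and 38 passed the filter on low counts, which left 12572 genes for testing. Slc16a3, the lactate exporter MCT4, was absent from that comparison and is listed at 0 counts in all 6 libraries, which was not examined further and does not show that the cells lack it, and Epas1, which encodes HIF-2 alpha, did not pass the filter. The set holds 22 genes of glucose uptake, glycolysis and the fate of pyruvate, and 18 genes of oxygen sensing and other hypoxia-induced functions.

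4T1-T is described as able to form channels by vasculogenic mimicry, in which tumor cells line vessel-like channels, and uptake of acLDL, a property of endothelium and macrophages, was used to separate its cells. All cells were kept overnight in serum-starvation medium, given Alexa-488-labelled acLDL at 10 ug/mL for 4 h and returned to complete growth medium for 1 h. The bottom 25% by fluorescence formed the acLDL-low population and the top 25% the acLDL-high population, with 3 libraries each from 3 sorting occasions, so that libraries with the same replicate number form a pair. No library had a low-oxygen treatment, no library came from cells without acLDL, and all cells are of 1 clone.

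Glycolysis converts glucose to pyruvate, and lactate dehydrogenase then turns pyruvate to lactate, a route that many tumor cells use even with oxygen present. When oxygen falls, the EGLN prolyl hydroxylases no longer mark HIF-1 alpha for destruction through VHL, and the stabilized factor, paired with ARNT, activates genes of glucose uptake, nearly every glycolytic step, mitophagy, collagen hydroxylation and vascular signalling. 4T1 cells are a widely used model of glycolytic mammary carcinoma.

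The library totals lay between 70263372 and 94216786 counts, of which 98.4% to 98.7% fell in the protein-coding genes of the comparison, and 3 counts corresponded to 0.0323 to 0.0429 CPM (the count of a gene per mega-count of its library), on library sizes scaled by TMM, the normalization of edgeR for composition. The carcinoma label was checked on 9 epithelial markers, all of which were tested and which summed to 3427 to 5646 CPM in acLDL-low and 3887 to 6038 CPM in acLDL-high libraries, with 3 claudins called higher. The 8 endothelial markers summed to 1.56 to 2.64 and 1.51 to 2.32 CPM, and none was called. Of these, 4 were absent from the comparison (Emcn and Flt4) or at or under 3 counts in every library. The 10 macrophage markers summed to 19.2 to 21.6 and 20.1 to 24.4 CPM. The 6 fibroblast markers summed to 28.2 to 40.6 and 28.8 to 42.9 CPM. Nearly all of this was Pdgfra (28.1 to 42.8 CPM over the 6 libraries), the only fibroblast marker tested. In each list 4 markers were absent from the comparison or at or under 3 counts throughout. The macrophage markers Adgre1 and C1qa were absent from the comparison, and Cd14 was called higher (0.32, edgeR adjusted p = 0.0246). Of the 4 macrophage markers tested, 3 had fitted values above 0 and 1 below, Cd68 (-0.28, edgeR adjusted p = 0.201). The Cd14 call was lost without replicate 1 or 3 and by DESeq2 with the block (adjusted p 0.0714, 0.175 and 0.0545). The part of these markers in the results was not tested. The occasion 2 libraries stood apart: deviations from the population mean correlated at -0.53 to -0.56 between a library of occasion 2 and libraries of the other population from other occasions, against -0.09 between occasions 1 and 3. Centring on the population mean pushes such values below 0, so only the contrast between them is read.

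Of the 38 tested genes, 3 differed between the populations at an adjusted p under 0.05 by the quasi-likelihood test of edgeR, fitted with a term for the replicate. Ddit4 and Ndrg1, both stress-induced, were lower in acLDL-high cells, and Angptl4, which encodes a secreted inhibitor of lipoprotein lipase, was higher. The 3 genes are 7.89% of those tested, while 4.75% of all 12572 genes were called, 3.43% as higher and 1.32% as lower, so the count of calls lay near the background. None of the 21 tested genes of glucose uptake, glycolysis and pyruvate was called. Without the replicate block no gene of the set and no gene among 12329 was called, with 45 of all genes and 0 of the set at an unadjusted p under 0.05.

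Counted over all 38 tested genes, the 3 called genes among them, the set leaned to one side. Fitted log2 fold changes (acLDL-high minus acLDL-low) were below 0 in 32 of 38 genes (84.2%), against 49.4% of all genes, with a median of -0.08 against 0.0017 over all genes tested. An unadjusted p under 0.05 was reached by 12 of the genes (31.6%), 9 lower and 3 higher, against 19.4% of all genes. The lean came mainly from the second pair. In pair 2, 33 of 38 genes (86.8%) were lower in acLDL-high cells and the median difference was -0.18. In pair 1, 19 genes (50%) were lower, and in pair 3, 21 (55.3%), with median differences of -5.2e-05 and -0.01. Over all genes the share lower was 45.2%, 52.5% and 50.1% in pairs 1, 2 and 3. Without replicate 2 the median of the set was -0.02. For no gene of the set were the populations separate in CPM, which 2.86% of all genes were.

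**Figure D1:**
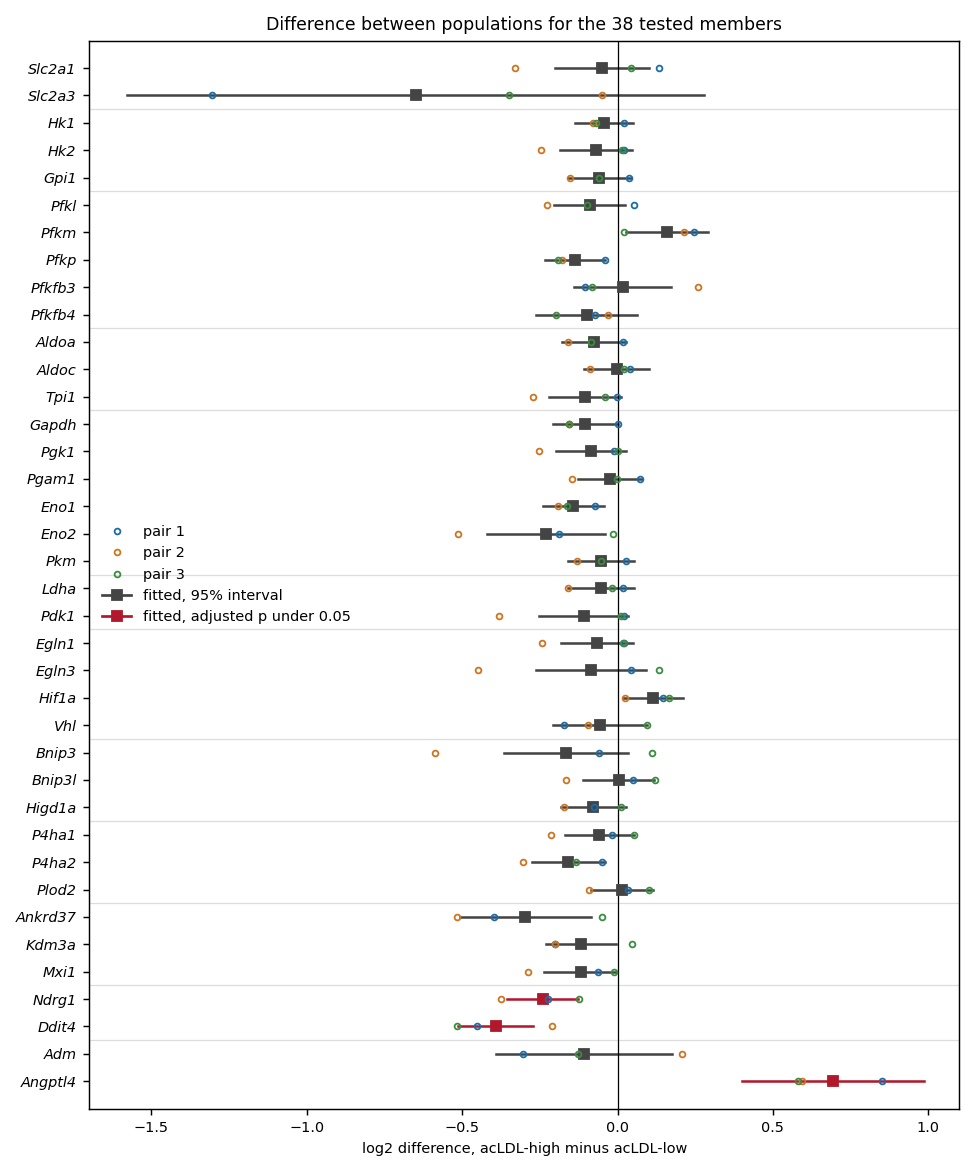
Log2 difference between acLDL-high and acLDL-low cells (x axis) for the 38 tested genes (y axis, ordered by role): squares are fitted log2 fold changes with 95% intervals from 3 pairs, red where the adjusted p was under 0.05, and open circles are the pairs. Most intervals cross 0, and most circles of pair 2 lie to the left of those of pairs 1 and 3.

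Ddit4 (ENSMUSG00000020108, GRCm38 chr10:59949669-59951834, minus strand) encodes REDD1, an inhibitor of mTORC1 signalling that hypoxia, glucocorticoids and the integrated stress response induce. Its level in acLDL-low replicates 1, 2 and 3 was 74.3, 109 and 86.2 CPM. In the matching acLDL-high libraries it was 54.2, 94.5 and 60.3 CPM. The ranges overlapped because of occasion 2, where both libraries were high, yet within every pair the acLDL-high library was lower, by -0.45, -0.21 and -0.52 on the log2 scale. Ddit4 fell by 0.39 on the log2 scale (SE 0.055, edgeR adjusted p = 0.00164), a change of -23.8% (95% interval -29.9% to -17.2%). Without replicate 3 the value was -0.33 with an adjusted p of 0.0611.

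Ndrg1 (ENSMUSG00000005125, chr15:66929318-66969640, minus strand) encodes a cytoplasmic stress protein that hypoxia and metal chelation induce strongly. It was among the most abundant genes of the set, at 1818, 1422 and 1913 CPM in acLDL-low replicates 1, 2 and 3. The acLDL-high libraries held 1559, 1096 and 1755 CPM. Each acLDL-high library lay under its partner, with the widest gap in pair 2 (-0.38) and the narrowest in pair 3 (-0.12). Ndrg1 fell by 0.24 on the log2 scale (SE 0.053, edgeR adjusted p = 0.0218), or -15.4%, and stayed called with any pair left out (adjusted p 0.0215 to 0.0458). Its exons overlap opposite-strand genes over 556 bases, whose own counts were at most 0.0726% of those of Ndrg1.

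Angptl4 (ENSMUSG00000002289, chr17:33773750-33781830, minus strand) was expressed at a low level, with 2.22, 2.34 and 1.16 CPM in acLDL-low replicates 1, 2 and 3. The acLDL-high libraries had 4.02, 3.55 and 1.74 CPM. Every acLDL-high library exceeded its partner, by 0.85, 0.59 and 0.58 on the log2 scale, although occasion 3 was low in both populations. Angptl4 rose by 0.69 on the log2 scale (SE 0.135, edgeR adjusted p = 0.0122), or 61.6% (95% interval 31.9% to 98.0%). The call was lost without replicate 1 (0.60, adjusted p = 0.0726) and without replicate 3 (0.73, adjusted p = 0.0834). Neither Ddit4 nor Angptl4 overlaps another gene's exons. In sorted bulk RNA, fewer cells expressing a gene and less of its RNA per cell cannot be told apart.

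The 5 genes next in order of p were lower in each pair and none passed the threshold. Lower values in all 3 pairs occurred in 11 of the 38 genes (28.9%), against 19.4% of all genes, and the next genes in order, Pfkm and Hif1a, were higher in all 3 pairs. Eno1, the main enolase, was at 1132, 1177 and 976 CPM in acLDL-low and 1077, 1032 and 872 CPM in acLDL-high replicates 1, 2 and 3 (log2 fold change -0.14, SE 0.045, edgeR adjusted p = 0.103). Its acLDL-high libraries were lower in every pair, while the populations overlapped. Of the 50-base stretches of Eno1, 72.2% also occur in other genes, mainly Eno1b, whose own log2 fold change was -0.16 (adjusted p = 0.0871), so reads of these genes may be exchanged. Pfkp, the platelet-type phosphofructokinase, was at 202, 163 and 171 CPM in acLDL-low and 197, 144 and 150 CPM in acLDL-high libraries (-0.14, SE 0.044, edgeR adjusted p = 0.111). It overlaps the opposite-strand gene Pitrm1 over 748 exon bases, and Pitrm1 itself had a log2 fold change of 0.02.

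Ankrd37, an ankyrin-repeat protein gene directly induced by HIF-1, was low, with 11.02, 4.47 and 11.8 CPM in acLDL-low and 8.37, 3.11 and 11.4 CPM in acLDL-high libraries (-0.30, SE 0.097, edgeR adjusted p = 0.112). Occasion 2 was lowest in both populations, and pair 3 hardly differed. Ankrd37 shares 406 exon bases with opposite-strand genes, of which Ufsp2 had 566% of its count and a log2 fold change of 0.02. P4ha2, a catalytic subunit of collagen prolyl hydroxylase, was at 49.5, 30.1 and 43.6 CPM in acLDL-low and 47.8, 24.3 and 39.8 CPM in acLDL-high libraries (-0.16, SE 0.055, edgeR adjusted p = 0.132). Eno2, the neuronal enolase that HIF-1 also induces, was at 19.0, 10.3 and 11.1 CPM against 16.7, 7.20 and 11 CPM (-0.23, SE 0.088, edgeR adjusted p = 0.172). For both, pair 2 gave the largest difference.

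**Figure D2:**
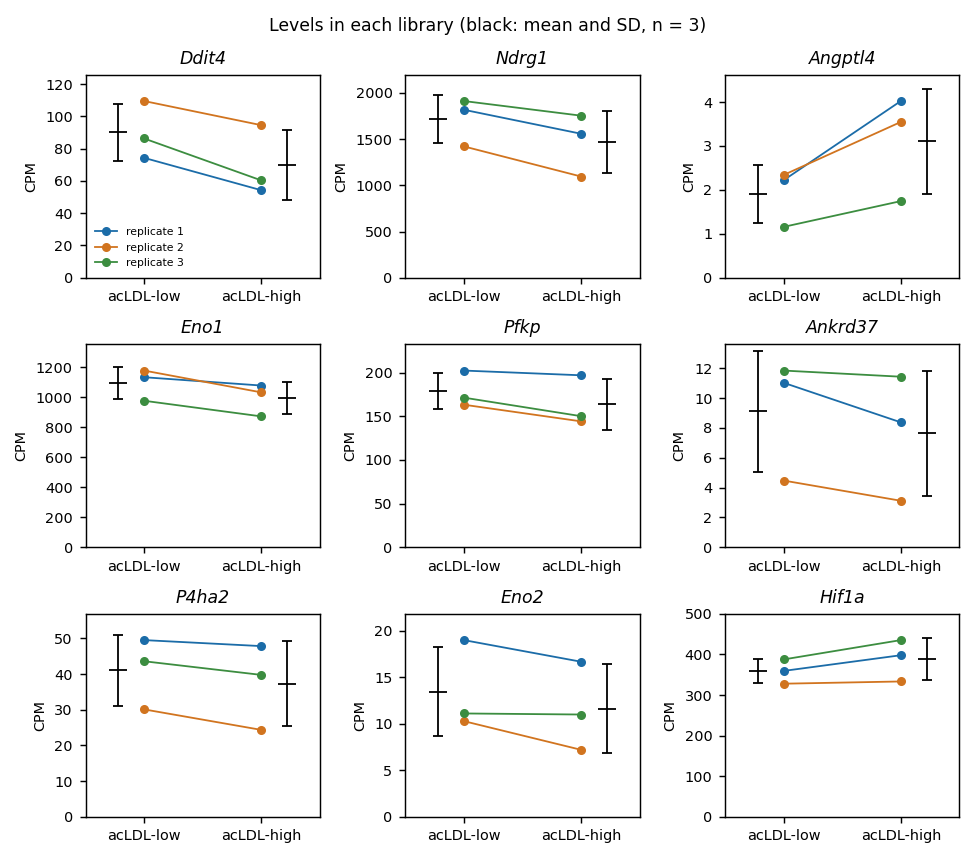
Level in CPM (y axis) of 9 genes in the acLDL-low and acLDL-high library of each replicate (joined points), with the mean and SD of 3 libraries in black. Lines of Ddit4 and Ndrg1 fall and those of Angptl4 rise in all 3 pairs, while the levels of an occasion lie apart from those of the others.

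The promoters of the 4 genes of the set with the smallest p and an entry in the RefSeq table are shown because HIF binds short sites of the form ACGTG or GCGTG. They span 250 bases before to 50 after the RefSeq start on GRCm38.p6, are written 5′ to 3′ on the strand of the gene, and carry each ACGTG or GCGTG of either strand in capitals (CACGT or CACGC where the site is on the other strand, with overlapping sites run together). Ddit4 is at chr10:59951721-59952020 (minus strand), Eno1 at chr4:150236458-150236757 (plus strand, the first of 3 entries), Pfkp at chr13:6648722-6649021 (minus strand) and Ankrd37 at chr8:45999801-46000100 (minus strand).
Ddit4: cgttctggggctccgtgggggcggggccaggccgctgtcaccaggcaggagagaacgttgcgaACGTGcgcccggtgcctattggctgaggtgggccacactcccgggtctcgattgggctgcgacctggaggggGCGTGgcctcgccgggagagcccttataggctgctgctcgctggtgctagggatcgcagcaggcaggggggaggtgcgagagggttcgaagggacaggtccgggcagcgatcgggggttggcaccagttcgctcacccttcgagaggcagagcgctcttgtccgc
Eno1: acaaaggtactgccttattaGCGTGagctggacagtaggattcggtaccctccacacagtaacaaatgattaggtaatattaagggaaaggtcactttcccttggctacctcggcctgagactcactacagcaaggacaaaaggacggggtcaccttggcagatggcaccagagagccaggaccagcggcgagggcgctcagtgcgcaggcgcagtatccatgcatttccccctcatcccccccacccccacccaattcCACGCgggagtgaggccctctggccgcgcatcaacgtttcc
Pfkp: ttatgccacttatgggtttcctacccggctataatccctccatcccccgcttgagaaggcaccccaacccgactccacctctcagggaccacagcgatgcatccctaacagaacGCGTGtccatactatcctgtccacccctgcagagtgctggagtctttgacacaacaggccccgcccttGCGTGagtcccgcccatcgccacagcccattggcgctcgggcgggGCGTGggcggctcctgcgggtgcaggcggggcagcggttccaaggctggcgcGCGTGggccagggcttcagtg
Ankrd37: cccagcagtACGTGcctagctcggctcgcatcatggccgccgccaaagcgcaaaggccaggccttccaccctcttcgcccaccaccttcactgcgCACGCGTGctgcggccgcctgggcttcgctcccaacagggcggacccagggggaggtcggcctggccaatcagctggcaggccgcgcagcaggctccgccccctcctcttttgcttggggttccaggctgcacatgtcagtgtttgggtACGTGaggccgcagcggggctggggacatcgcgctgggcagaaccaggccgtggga
The Ddit4 window holds 1 ACGTG and 1 GCGTG, that of Eno1 2 GCGTG, that of Pfkp 4 GCGTG, and that of Ankrd37 2 of each kind. None of the 4 holds CACGTG, the palindromic E-box that contains ACGTG on both strands. At least 1 ACGTG or GCGTG was present in 26 of the 34 promoters found for the set (76.5%), in 63.3% of the 9851 promoters of genes tested and in 43.8% of all 27025. CACGTG was present in 4 of 34 (11.8%), against 10.1% of promoters of genes tested and 7.24% of all. Slc2a3, Angptl4, Epas1, Plod2, Ndrg1 and Bnip3l had no entry.

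Glucose enters these cells through transporters of the SLC2A family. Slc2a1, which encodes GLUT1, supplied over 99.9% of the counts per length of the 2 transporters followed, at 258 to 416 CPM, and did not pass the test (-0.05, 95% interval -0.20 to 0.10). Its pair differences were 0.13, -0.33 and 0.04, so the sign depended on the pair. Slc2a3, which encodes GLUT3, was at 0.129 to 0.410 CPM (12 to 31 counts), too near the floor to resolve a change (95% interval -1.58 to 0.28).

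The hexokinases trap glucose as glucose-6-phosphate. Hk1 made up 51.3% to 57.5% of hexokinase counts per length over the 6 libraries and the HIF-induced Hk2 the rest, and their log2 fold changes were -0.04 and -0.07 (edgeR adjusted p of 0.628 and 0.520). Gpi1, the isomerase that follows, had -0.06. Among phosphofructokinase subunits, the rate-controlling step, the liver type Pfkl made up 77.2% to 80.4% per length with a log2 fold change of -0.09. The muscle type Pfkm was 1 of only 6 genes of the set above 0 (0.16, edgeR adjusted p = 0.172). Pfkfb3 and Pfkfb4, bifunctional enzymes that set the level of a phosphofructokinase activator, had 0.02 and -0.10, and the share of Pfkfb3 ranged from 45.0% to 65.4%.

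Aldoa carried 96.6% to 98.8% of aldolase counts per length. The level of Aldoa in acLDL-low replicates 1, 2 and 3 was 1453, 1378 and 1727 CPM, and in acLDL-high replicates 1470, 1235 and 1629 CPM (log2 fold change -0.08, 95% interval -0.18 to 0.03). Tpi1, which interconverts the triose phosphates, was at 857, 756 and 813 CPM against 857, 626 and 791 CPM (-0.10, 95% interval -0.22 to 0.01). In both genes the 2 populations overlapped, and the lowest of the 6 libraries was acLDL-high replicate 2. Aldoc, the brain-type aldolase, had no measurable difference between populations (-0.0032, 95% interval -0.11 to 0.10).

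Gapdh, the oxidizing step, was at 1616, 1722 and 1550 CPM in acLDL-low and 1618, 1543 and 1391 CPM in acLDL-high libraries (-0.10, 95% interval -0.21 to 0.0010). Pkm, pyruvate kinase, was at 3556, 3564 and 3057 CPM against 3624, 3255 and 2944 CPM (-0.05, 95% interval -0.16 to 0.05). For each the first pair differed by at most 0.03 and the other pairs were lower in acLDL-high cells. Ldha, which regenerates NAD by making lactate, was at 1505, 1425 and 1252 CPM against 1525, 1276 and 1235 CPM (-0.05, 95% interval -0.16 to 0.05). Pgk1 and Pgam1, the kinase and mutase between Gapdh and enolase, had -0.09 and -0.03. Pdk1, which inhibits pyruvate dehydrogenase and so keeps pyruvate from the mitochondria, had -0.11 (edgeR adjusted p = 0.408), with -0.38 in pair 2 and differences of 0.02 and 0.01 in pairs 1 and 3.

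Levels of different genes were compared per kb of exon, with all annotated exons of a gene merged. That length can exceed the length of the transcript present. The order below and the shares per length above depend on this choice, and other lengths were not tried. Pkm led with a mean of 667 CPM per kb (589 to 725 over the 6 libraries), followed by Aldoa at 509 (424 to 593), Ldha at 414 (373 to 461), Gapdh at 381 (337 to 417) and Tpi1 at 285 (227 to 311). Ranges over the 6 libraries overlapped between neighbours from Pkm to Gapdh, while that of Tpi1 lay below that of Gapdh. Within every library the order of these 5 genes was the same. Ndrg1, at 242, and Eno1, at 194 CPM per kb, came next and were the highest outside these 5. Stretches of 50 bases also found in other genes, whether pseudogenes, other copies or overlapping genes, made up over 20% of 8 genes of the set (Eno1, Pgk1, Bnip3, Pgam1, Higd1a, Pkm, Gapdh and Bnip3l), so their levels carry that uncertainty.

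**Figure D3:**
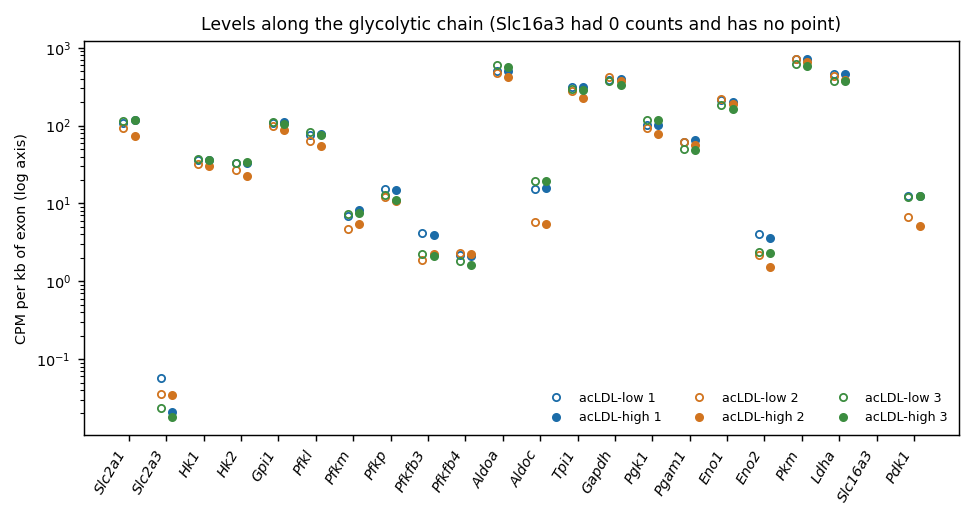
Level per kb of exon (y axis, log scale, CPM per kb) along the chain from glucose uptake to the fate of pyruvate (x axis), with open circles for acLDL-low and filled circles for acLDL-high libraries, coloured by replicate. Pkm, Aldoa, Ldha, Gapdh and Tpi1 lie above 200 CPM per kb in all 6 libraries, Slc2a3 lies lowest, and the populations overlap for every gene.

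The oxygen-sensing genes were not called. Hif1a, the oxygen-regulated subunit of HIF-1, was at 360, 328 and 388 CPM in acLDL-low and 398, 333 and 435 CPM in acLDL-high libraries (0.11, SE 0.045, edgeR adjusted p = 0.183). Each acLDL-high library exceeded its partner, though by only 0.02 in pair 2. Its protein, which is regulated mainly by degradation, was not measured. Vhl, the substrate receptor of that degradation, was at 17.0, 13.1 and 15.2 CPM against 15.1, 12.2 and 16.3 CPM (-0.06, edgeR adjusted p = 0.724), with pair differences of both signs. Epas1 had 0 counts in 5 libraries and 2 counts in acLDL-high replicate 3. Egln1 and Egln3, the hydroxylases, had -0.07 and -0.08 (edgeR adjusted p of 0.541 and 0.626), and Egln3, itself a HIF target, made up 57.7% to 71.3% of the counts per length of the pair.

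None of the mitochondrial, matrix and nuclear genes of the hypoxia response was called. Bnip3 and Bnip3l, receptors for mitophagy, had -0.17 and 0.0036, and Higd1a, a small inner-membrane protein of the hypoxia response, had -0.08. The Bnip3 value rested on pair 2 (-0.59, against -0.06 and 0.11). P4ha1 and Plod2, which hydroxylate collagen prolines and lysines, had -0.06 and 0.01, with P4ha1 making up 82.8% to 88.7% of the counts per length of P4ha1 and P4ha2. Kdm3a, a histone demethylase, and Mxi1, a MYC antagonist, had -0.12 each (edgeR adjusted p of 0.235 and 0.256). Adm, the vasodilator peptide adrenomedullin, was at 1.65 to 4.85 CPM with -0.11 (95% interval -0.39 to 0.17).

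The median SE of the 38 genes was 0.053 on the log2 scale, and for 33 of the 35 genes not called the 95% interval lay within -0.5 and 0.5. The exceptions were Slc2a3 and Ankrd37. A p above the threshold does not show equal levels, and differences of the size seen in Ndrg1 lie inside several of these intervals.

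The sorting occasions differed more than the populations did. The range of the 3 occasion means exceeded the size of the fitted log2 fold change in 38 of 38 genes, as it did in 95.4% of all genes. Its median was 0.53 on the log2 scale in the set and 0.45 over all genes. Occasion 2 was lowest for 29 of 38 genes (76.3%), against 39.9% of all genes, occasion 3 for 8 and occasion 1 only for Ddit4. The median range was 0.85 in the 17 tested genes of oxygen sensing and other hypoxia-induced functions, of which 15 were lowest in occasion 2, and 0.39 in the 21 of glycolysis, of which 14 were. This difference between the groups was not tested.

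Aldoc spanned 3.49-fold between occasions, at 49.4, 18.7 and 63.1 CPM in acLDL-low replicates 1, 2 and 3 and 50.9, 17.6 and 64.0 CPM in acLDL-high replicates. Egln3 spanned 2.88-fold, at 207, 85.4 and 128 CPM and 214, 62.5 and 141 CPM. In both genes the libraries of an occasion were nearer to each other than to those of other occasions. Egln3 still differed by -0.45 on the log2 scale within pair 2. Ankrd37 (3.10-fold), Adm (2.44-fold), Bnip3 (2.31-fold) and Pdk1 (2.10-fold) were also lowest in occasion 2. Both libraries of an occasion were sorted together, so an occasion is not replicated and no test was made. The 10 most abundant genes took 6.93% and 7.005% of counts in the occasion 2 libraries and 8.13% to 8.52% in the others, and the part of this difference in the result was not tested.

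**Figure D4:**
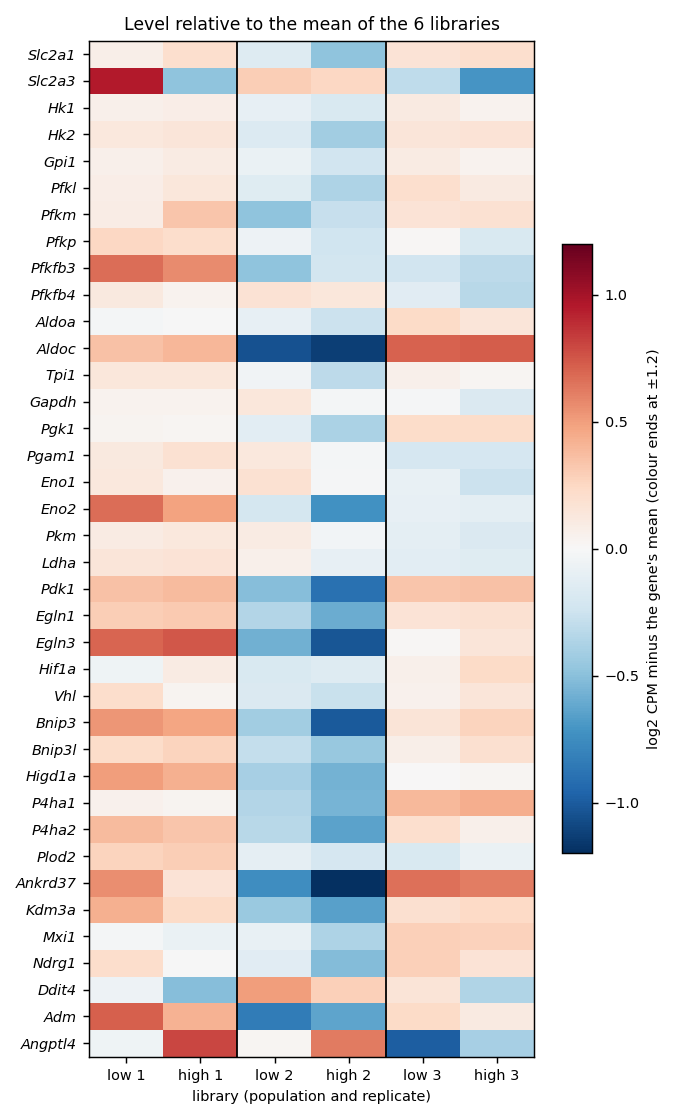
Log2 CPM minus the gene's mean over the 6 libraries (colour, ends at ±1.2) for the 38 tested genes (rows, by role) in each library (columns, ordered by replicate). Occasion 2 held the lowest mean for 29 of the 38 genes, seen as blue in the columns of replicate 2, and the 2 columns of a replicate resemble each other.

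Genes of neighbouring pathways outside the set were read from the same fit. Of 23 other glycolytic and sugar-branch isoenzymes 14 were tested and 0 called (median log2 fold change 0.01). The gene with the smallest p was Gbe1, the glycogen branching enzyme (0.11, edgeR adjusted p = 0.272). All 7 genes of the pentose phosphate pathway, which makes NADPH and ribose, were tested and 0 called, with a median of 0.0086 and the smallest p in Pgls (-0.12, edgeR adjusted p = 0.165). Of 28 genes of pyruvate entry and the TCA cycle 27 were tested and 0 called, with 23 above 0 and a median of 0.04. Dlat, the acetyltransferase of pyruvate dehydrogenase, had 0.12 (edgeR adjusted p = 0.129). Of 10 other oxygen-sensing genes 8 were tested and 0 called, and Cited2, a HIF-induced inhibitor of HIF transactivation, came nearest (0.18, edgeR adjusted p = 0.0792), with 0.34, 0.02 and 0.19 in the pairs.

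From a wider list of 36 hypoxia-induced genes 28 were tested. Of these, 7 were called higher, among them Ier3, Dusp1, Stc1, Bhlhe40, Anln and Vegfa, and 1 lower (Stc2). Stc1 did not rise in pair 2, with differences of 0.63, -0.01 and 0.48 in pairs 1, 2 and 3. Over all genes 3.43% were called higher and 1.32% lower. Fitted values were below 0 in 15 of the 28 and above 0 in 13, with a median of -0.02. Ier3, an early response gene of survival signalling, rose by 0.31 (SE 0.050, edgeR adjusted p = 0.00399). Vegfa, the angiogenic HIF target, rose by 0.15 (adjusted p = 0.0481), from 135, 138 and 208 CPM to 152, 152 and 230 CPM, and lost the call without replicate 1, 2 or 3 (adjusted p 0.130, 0.0548 and 0.192). Stc2, a secreted glycoprotein that ATF4 also induces, fell by 0.29 (adjusted p = 0.00298), from 42.1, 54.5 and 89.4 CPM to 35.8, 43.9 and 72.3 CPM. Without replicate 3 the calls of Stc2, Ier3, Dusp1, Stc1, Bhlhe40 and Anln were lost as well (adjusted p 0.0674, 0.0722, 0.242, 0.288, 0.101 and 0.257). Dusp1 had 0.16 without replicate 3, against 0.28 with all pairs. Bhlhe40 was also not called without replicate 2 (0.15, against 0.29, adjusted p = 0.0570), nor Stc1 by DESeq2 with the block (adjusted p = 0.371). Several of the genes that rose also answer to growth factor or serum signals, and Anln encodes a cytokinesis protein. The part of such signals or of cell division in these rises was not tested.

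Since ATF4 also induces Ddit4, 10 genes of that stress response outside the set were examined. Like the other lists, the G2/M list included, they were chosen with earlier results of these data known. Counts of calls in these lists are therefore description only. All 10 ATF4 genes were tested, 5 fell, 0 rose and the median was -0.16, where 1.32% of all genes were called lower. Trib3, a pseudokinase that restrains ATF4 signalling, fell by 0.53 (SE 0.064, edgeR adjusted p = 5.12e-04), from 46.5, 78.3 and 101 CPM to 27.5, 61.8 and 71.0 CPM, and was called with any pair left out. Ddit3, the stress factor CHOP, fell by 0.52, Chac1, which degrades glutathione, by 0.34, Sesn2, a leucine sensor, by 0.23 and Atf4 itself by 0.17 (adjusted p 0.0145, 0.0147, 0.0431 and 0.0497). Without replicate 3 all of these except Trib3 lost the call (adjusted p 0.0827, 0.102, 0.121 and 0.1504), and Sesn2 and Atf4 did so without replicate 1 (adjusted p 0.131 and 0.255). Ddit3 was widest apart in pair 1 (-0.97, against -0.32 and -0.31) and had -0.31 without it (adjusted p = 0.0188). With all pairs and the block, Sesn2 was not called by DESeq2, with all gene IDs or with the GC trend removed (adjusted p 0.0550, 0.0509 and 0.134). Atf4 was not called with at least 10 counts in every library, with all gene IDs or with the GC trend removed (adjusted p 0.0511, 0.0594 and 0.0860). Of 25 G2/M genes 18 rose, with a median of 0.30, where 3.43% of all genes were called higher. Their summed level was 3641 to 4542 CPM in acLDL-low and 4542 to 5582 CPM in acLDL-high libraries. The part of ATF4 or of cell cycle phase in the values of Ddit4 and the other glycolytic and hypoxia-induced genes was not tested.

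**Figure D5:**
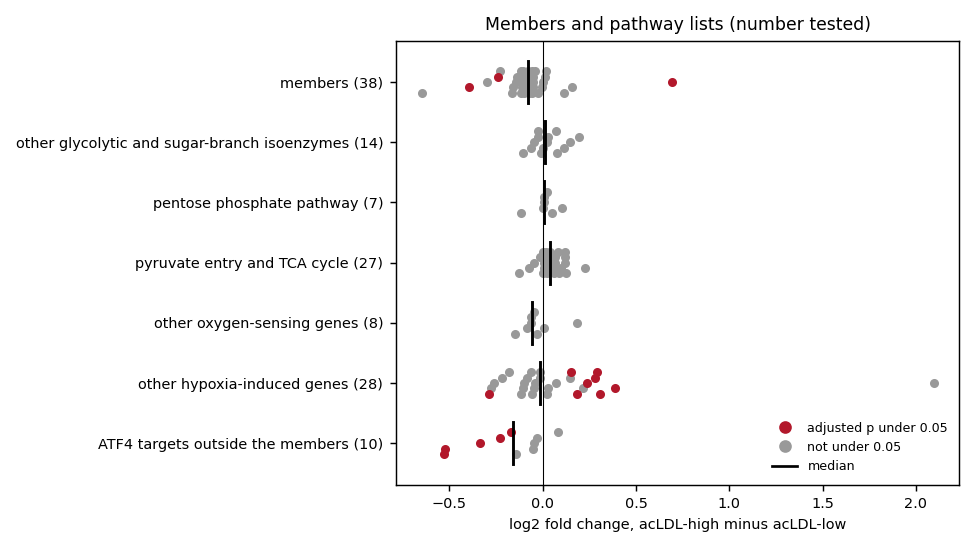
Log2 fold change (x axis, acLDL-high minus acLDL-low) of each tested gene of the set and of 6 lists outside it (y axis, number tested in brackets), red where the adjusted p was under 0.05, with the median as a black bar. The medians lie at -0.08 for the set, near 0 for the other metabolic lists and at -0.16 for the ATF4 genes, and the point at 2.10 is Selenbp1, which was not called and lay at or under 0.528 CPM in every library.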

How the data were processed

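RNA-Seq of 4T1-T cells sorted by acLDL uptake was analysed, with 3 acLDL-low and 3 acLDL-high libraries grouped by their labels. Libraries were stranded, made from mRNA and sequenced as paired 50-base reads. Per the submitters' processing notes, STAR 2.5.2a, featureCounts 1.4.3-p1 and DESeq2 1.20.0 were used with mm10. The authors deposited raw counts per gene, without normalization, for 53379 gene IDs. The annotation release and the strand setting of the counting are not given in the sources used here. A deposited comparison (mean normalized counts, fold changes, errors and p-values) gave only gene IDs and symbols, and its values were not used.

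Counts were fitted with edgeR 4.0.16 (R 4.3.3, limma 3.58.1) by glmQLFit and glmQLFTest with terms for replicate and population, after filterByExpr and TMM scaling. Benjamini-Hochberg adjustment ran over the 12572 genes tested, with a threshold of 0.05. The SE was obtained as the size of the log2 fold change over the root of F, and intervals are 95%. CPM uses scaled library sizes, and pair differences and occasion means use log2 CPM with a prior count of 2. Fold changes of the lists come from the same fit, and lists are described by counts and medians only. Positions, exon lengths, overlaps and shared 50-base stretches are from GENCODE M21 on GRCm38, in which 53274 IDs were found, and promoters from RefSeq (GRCm38.p6), matched by symbol for 34 of the 40 genes.

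Replicate numbers come from the labels, and the design text places the sorts on separate occasions. Deviations from the population mean correlated at 0.795, 0.846 and 0.799 between same-numbered libraries and at -0.557 to -0.0882 between others. Centring on the population mean pushes the latter below 0, so their sign carries no information. The number was kept as a block because the sorts were on separate occasions and same-numbered libraries went together. The block takes up differences between occasions. P-values therefore set a gene's difference within pairs, over 3 occasions of 1 clone, against a spread that edgeR moderates with that of other genes. They do not measure the spread of the gene's own 3 pairs alone. Depth of at least 70263372 counts limits precision most for genes of low count, such as Slc2a3 with 12 to 31 counts per library (SE 0.43). The floor of 3 counts covers counting error only. On simulated counts the fit recovered 189 of 200 genes changed by 1 (log2) among 12469 and 131 of 200 changed by 0.3 among 12476, with 15 and 11 false calls.

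Alternatives were no block, DESeq2 size factors, DESeq2 1.42.0 with and without the block, no low-count filter, a minimum of 10 counts in each library, all gene IDs, removal of the trend on GC content, leaving out each pair, and an adjusted p under 0.01. All 40 genes are named. Values in every library are given for genes called, the 5 next by p, Hif1a, Epas1, Vhl and the 5 highest per kb. Of other lists, called genes and those of smallest p are named, except 1 that is not reported here, and Slc2a1, Aldoc, Egln3 and Selenbp1 have values chosen after they were seen. The members and lists were chosen with earlier results of these data known. Another gene ID of Aldoa, with 91 to 141 counts per library, was not used.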

Additional observations from a re-analysis of the deposited data

How the results depend on the processing

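Without the replicate block, with edgeR or with DESeq2, 0 genes of the set, 0 genes of the lists outside it and 0 of all genes were called (45 and 77 of all genes at an unadjusted p under 0.05). The 597 genes called became 932 without the low-count filter, 470 with DESeq2 and the block, and 199 at an adjusted p under 0.01, where the set kept 0 higher and 1 lower gene. With a pair left out, the set had 0 to 1 higher and 1 to 4 lower genes called, all genes 126 to 869, and the lists 9 to 36, against 31 with all pairs. Eno1 passed with DESeq2 and the block (adjusted p = 0.0441), Ankrd37 without the filter (0.0432), and Pfkp and P4ha2 without replicate 1 (0.0351 and 0.0472).

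The median of the set stayed below 0 in all 11 alternatives, from -0.11 to -0.02. Of the comparisons of single genes of the set with an alternative, 381 kept sign and side of the threshold, 4 gained and 9 lost the call, and 24 changed sign. Aldoc was 0.0177 and 0.0176 without the block (edgeR and DESeq2), 0.0036 without the filter, 0.0066 with all gene IDs and 0.0112 with the GC trend removed. Pfkfb3 was -0.0086 and -0.0073 without the block, and Bnip3l and Plod2 were -0.0099 and -0.0011 with the GC trend removed. With a pair left out, values ran from -0.11 to 0.0164 for Hk2, -0.11 to 0.0165 for Egln1, -0.11 to 0.0157 for P4ha1, -0.0261 to 0.0295 for Aldoc, -0.0736 to 0.0333 for Pgam1, -0.14 to 0.0860 for Slc2a1 and -0.18 to 0.0148 for Pdk1. They ran from -0.0976 to 0.0864 for Pfkfb3, -0.31 to 0.0228 for Bnip3, -0.0549 to 0.0835 for Bnip3l, -0.19 to 0.0860 for Egln3, -0.13 to 0.0045 for Vhl, -0.22 to 0.0201 for Adm and -0.0265 to 0.0649 for Plod2. The cause was not tested. With the block and all pairs, Ddit4, Ndrg1 and Angptl4 were called at 0.05 in every alternative. The low count of Slc2a3, 12 to 31 per library, limits its precision.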
